A study of Mus musculus with 6 samples.

Results

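The cone phototransduction cascade was followed here through 9 genes, chosen by symbol from the known cone pathway. All 9 (Gnat2, Gnb3, Gngt2, Pde6c, Pde6h, Cnga3, Cngb3, Arr3 and Slc24a2) were among the 49997 genes of the deposited table, and all 9 passed the filter on low values that left 20277 genes for testing. RNA of 6 whole mouse retinas, 1 retina per library, was sequenced after selection of polyadenylated RNA. The 3 retinas labelled Samd7 KO carried the genotype label Samd7 knockout (-10A), were male and were taken at postnatal day 31. The 3 wild-type retinas carried the genotype label c57Bl6/j wt, were male and were taken at postnatal day 36. Genotype and age therefore changed together and cannot be told apart. The labels do not say how many mice each group stands for, so every p-value rests on the spread between these retinas, which may be technical.

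In cones, light activates an opsin, which switches on the G protein transducin. The transducin alpha subunit releases the inhibitory subunit of phosphodiesterase 6, cyclic GMP is hydrolysed, and the cyclic nucleotide-gated channel closes. A sodium/calcium, potassium exchanger then lowers calcium, and arrestin binds the phosphorylated opsin to end the response. Rods run the same steps with their own subunits, so that nearly every cone protein has a rod partner encoded by a separate gene. Samd7 is a sterile alpha motif protein of photoreceptors that acts with Polycomb complexes, and the study asks about its role in keeping photoreceptor identity.

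The 4 cone genes for the transducin beta and gamma subunits and for both subunits of the cone channel were 4.24- to 9.24-fold higher in the retinas labelled Samd7 KO, while the other 5 members differed by at most 1.21-fold in group means. Of the 9 members, 4 were called higher and 0 lower by limma at an adjusted p under 0.05, against 6.79% of all tested genes called higher and 5.21% called lower. All 4 had a log2 fold change of at least 2, a size that 0.833% of tested genes reached with a call. Of the count of 0 lower, limma gave 1 member, Gnat2, at an unadjusted p under 0.05; edgeR and DESeq2 called 0 lower and limma-voom with sample quality weights called 1, again Gnat2. The groups did not overlap for 5 members that were higher and 2 that were lower, where 31.1% of all tested genes did not overlap in either direction. The median log2 fold change of the 9 members was 0.27, against 0.00 over all genes tested. Reads of the 9 members together made up 0.480% to 0.607% of a library labelled Samd7 KO and 0.189% to 0.211% of a wild-type library. Gnb3 weighed most in this sum, with means of 163123 normalized reads under the Samd7 KO label and 38507 in wild type. In a whole retina, more cells of a type and more RNA per cell cannot be told apart.

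**Figure D1:**
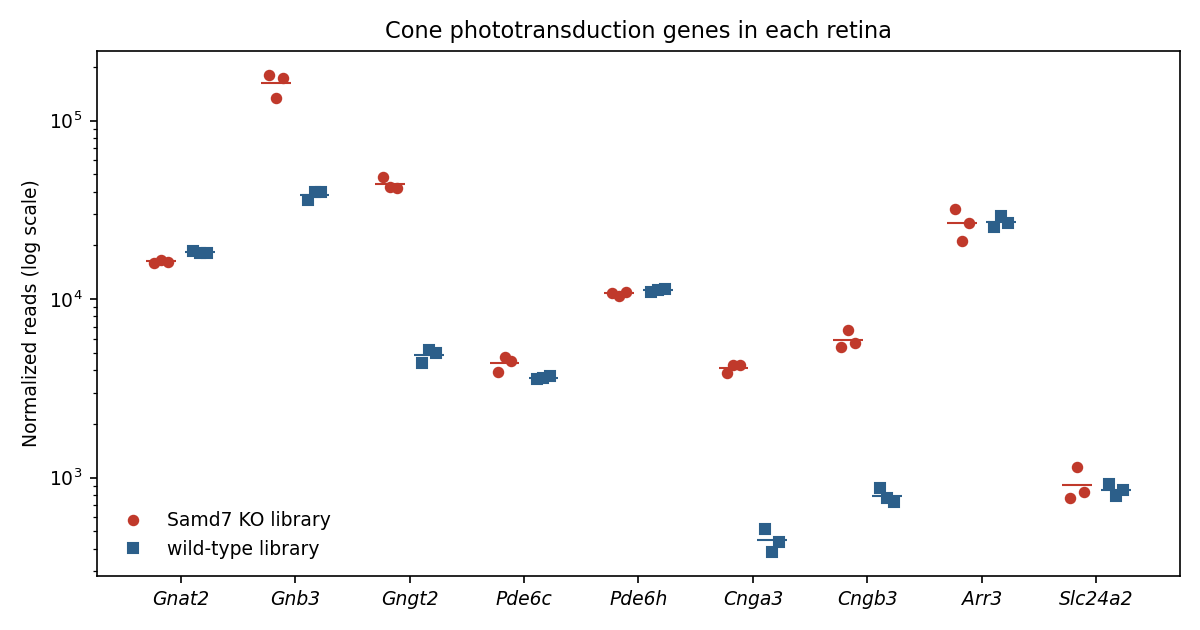
Normalized reads (log axis) of each cone phototransduction gene in the 3 libraries labelled Samd7 KO (circles) and the 3 wild-type libraries (squares), with group means as lines. Gnb3, Gngt2, Cnga3 and Cngb3 lay far apart between groups, while Arr3 and Slc24a2 overlapped and Gnat2, Pde6c and Pde6h were separated by narrow gaps.

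Samd7 itself checks the labels. Its normalized reads, the reads of a gene over the library's size factor, numbered 57837, 45755 and 44932 under the Samd7 KO label, against 6349, 8141 and 8122 in wild type. The targeted gene was thus 6.57-fold higher under the KO label. Gene-level reads carry no view of the altered sequence, and every direction below is that of the label. Depth, as recovered whole reads, was 44.2 to 53.1 M per library labelled Samd7 KO and 47.7 to 62.8 M per wild-type library. The smallest count of any member in any library was 355 reads, for Cnga3 in wild type 2. Lens markers stood apart in the library labelled wild type 3, where 5 lens genes summed to 7020 normalized reads, against 27.9 to 76.7 under the Samd7 KO label and 44.5 and 49.8 in the other wild-type libraries. Without wild type 3 the same 4 members were called higher and 0 lower.

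Cone transducin is a trimer, and of its 3 genes the beta and gamma subunits rose. Gnat2, the cone transducin alpha subunit (chromosome 3, 108086788 to 108101432, GRCm38), had 15968, 16674 and 16204 normalized reads in the retinas labelled Samd7 KO, against 18586, 18179 and 18149 in wild type. All 3 retinas labelled Samd7 KO lay below all wild-type retinas, an order in this direction that 15.2% of tested genes had. The log2 fold change of Gnat2 was -0.17 (SE 0.06, 95% interval -0.30 to -0.04) and did not pass the test (limma adjusted p = 0.0866). Of 18 other ways to run the test, limma-voom with sample quality weights alone called it (adjusted p = 0.0163), and the range over all 18 was 0.0163 to 0.251.

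Gnb3, the beta subunit of cone transducin (chromosome 6, 124834240 to 124840275), had 181282, 134487 and 173602 normalized reads in the retinas labelled Samd7 KO, against 36090, 39756 and 39676 in wild type. The lowest retina labelled Samd7 KO was replicate 2, and it still lay far above the highest wild-type retina. The mean was 163123 ± 25096 in the retinas labelled Samd7 KO and 38507 ± 2094 in wild type (SD, n = 3 per group). That is 4.24-fold higher, with a limma log2 fold change of 2.07 (SE 0.10, adjusted p = 4.62e-08). Gnb3 is also made by ON bipolar cells, whose 8 markers summed to 50788 to 55882 normalized reads in the retinas labelled Samd7 KO and 46847 to 49288 in wild type. Gnao1 weighed most in this sum, with means of 18538 normalized reads in the retinas labelled Samd7 KO and 15144 in wild type. Of the 8 ON bipolar genes, Gnao1 rose (log2 fold change 0.29, limma adjusted p = 0.0157), Pcp2 fell (-0.37, limma adjusted p = 0.0481) and 6 did not pass. Limma called 6.79% of all tested genes higher and 5.21% lower. The 8 ON bipolar genes had log2 fold changes of -0.37 to 0.29. Gng13, a gamma subunit of ON bipolar cells that was not among these 8, rose by 0.86 (limma adjusted p = 4.50e-05). Pcp2 was not called by edgeR or with scaling to total reads, and limma-voom and scaling to total reads also called Grm6 and Trpm1 higher. The part of these cells in the rise of Gnb3 was not tested.

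Gngt2, the gamma subunit of cone transducin (chromosome 11, 95841772 to 95845734), had 48604, 42429 and 42044 normalized reads in the retinas labelled Samd7 KO, against 4395, 5171 and 5023 in wild type. The groups were separated by a gap much wider than either group's range. The mean was 44359 ± 3681 in the retinas labelled Samd7 KO and 4863 ± 412 in wild type (SD, n = 3 per group), 9.12-fold higher (limma, 3.19 in log2, SE 0.08, adjusted p = 2.28e-10). Gngt2 shares 705 bases of the genome with Abi3, and the sources used here do not say whether reads were counted by strand. Abi3 averaged 429 normalized reads in the retinas labelled Samd7 KO and 238 in wild type.

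Within each retina, where library scaling cancels, the trimer's transcripts stood in other proportions. The ratio of Gngt2 to Gnat2 reads was 3.04, 2.54 and 2.59 in the retinas labelled Samd7 KO, against 0.236, 0.284 and 0.277 in wild type. The ratio of Gnb3 to Gnat2 reads was 11.4, 8.07 and 10.7 in the retinas labelled Samd7 KO, against 1.94, 2.19 and 2.19 in wild type. These ratios were 10.3- and 4.73-fold higher by their mean logs, with no overlap between groups (two-sided exact permutation p = 0.1 for each, adjusted p = 0.16 over 8 members). With 3 retinas against 3, 0.1 is the smallest p the exact test can give. Each alone, Gngt2 and Gnb3 lay higher and Gnat2 lower without overlap, so these p-values restate those orders. Gnb3 and Gngt2 encode a beta-gamma pair, and their own ratio, for which no test was run, did not overlap between groups, at 3.73, 3.17 and 4.13 in the retinas labelled Samd7 KO and 8.21, 7.69 and 7.90 in wild type.

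Cone phosphodiesterase is built from a catalytic subunit encoded by Pde6c and an inhibitory subunit encoded by Pde6h. Pde6c (chromosome 19, 38132781 to 38183955) had 3888, 4743 and 4507 normalized reads in the retinas labelled Samd7 KO, against 3557, 3595 and 3735 in wild type. All retinas labelled Samd7 KO lay above all wild-type retinas, as they did for 15.9% of tested genes, but replicate 1 by a narrow margin. The log2 fold change was 0.27 (SE 0.09, 95% interval 0.08 to 0.45) and did not pass (limma adjusted p = 0.0673). Pde6c was called higher in 5 of the 18 other ways to run the test, with an adjusted p of 0.0127 without the library labelled Samd7 KO 1, 0.0136 with limma-voom, 0.0246 with scaling to total reads, 0.0433 with DESeq2 and 0.0491 after each library's smooth trend with transcript length was subtracted. The range over all 18 was 0.0127 to 0.206. The authors' deposited table lists an adjusted p of 0.0422 for Pde6c against no change. Of the 9 members, 5 were called higher and 0 lower, in the authors' deposited table, against 8.29% and 6.03% of the genes it tested.

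Pde6h (chromosome 6, 136952218 to 136963485) had 10893, 10399 and 11006 normalized reads in the retinas labelled Samd7 KO, against 11029, 11256 and 11393 in wild type. The highest retina labelled Samd7 KO lay just under the lowest wild-type retina, so the order was complete but the gap was small. Its log2 fold change was -0.06 (SE 0.06, 95% interval -0.20 to 0.08, limma adjusted p = 0.583). That interval includes a difference as large as that of Gnat2.

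The cone cyclic nucleotide-gated channel is a tetramer of Cnga3 and Cngb3 subunits. Cnga3, the subunit that forms the pore (chromosome 1, 37218241 to 37263384), had 3842, 4267 and 4253 normalized reads in the retinas labelled Samd7 KO, against 517, 384 and 437 in wild type. It averaged 4121 ± 242 in the retinas labelled Samd7 KO and 446 ± 66.8 in wild type (SD, n = 3 per group), 9.24-fold higher (limma, 3.21 in log2, SE 0.11, adjusted p = 4.13e-09). Cngb3, the modulatory subunit (chromosome 4, 19280850 to 19510623), had 5374, 6732 and 5657 normalized reads in the retinas labelled Samd7 KO, against 876, 769 and 734 in wild type. Both genes rose, with no wild-type retina near any retina labelled Samd7 KO. Cngb3 averaged 5921 ± 717 in the retinas labelled Samd7 KO and 793 ± 73.9 in wild type (SD, n = 3 per group), 7.46-fold higher (limma, 2.90 in log2, SE 0.10, adjusted p = 4.66e-09). The ratio of Cnga3 to Cngb3 reads was 0.715, 0.634 and 0.752 in the retinas labelled Samd7 KO and 0.590, 0.499 and 0.595 in wild type. That shift was 1.25-fold by the mean logs, small beside the change of either gene.

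The members of shut-off and calcium extrusion did not pass the test. Arr3, cone arrestin (chromosome X, 100605480 to 100618493), had 32135, 21112 and 26692 normalized reads in the retinas labelled Samd7 KO, against 25522, 29305 and 26557 in wild type. The retinas labelled Samd7 KO held both the highest and the lowest value, so that the wild-type values fell inside their range. Limma gave a log2 fold change of -0.04 with a 95% interval of -0.31 to 0.22 (adjusted p = 0.859), and its sign turned in 4 of the 18 other ways to run the test. Slc24a2, the exchanger of cone outer segments that is also made by other neurons (chromosome 4, 86983124 to 87230652), had 765, 1147 and 830 normalized reads in the retinas labelled Samd7 KO, against 927, 786 and 852 in wild type. Its groups overlapped, with a limma log2 fold change of 0.08 and a 95% interval of -0.24 to 0.39 (adjusted p = 0.779), and the sign turned in 2 of the 18.

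The replicates of both groups spread unevenly around their own group mean. Arr3, Gnb3 and Gngt2, the members with the shortest principal transcripts, deviated by 0.29, 0.16 and 0.14 on the log2 scale in Samd7 KO 1 and by -0.31, -0.27 and -0.06 in Samd7 KO 2. Slc24a2, Cngb3 and Pde6c, with longer transcripts, deviated by -0.23, -0.13 and -0.17 in Samd7 KO 1 and by 0.35, 0.19 and 0.12 in Samd7 KO 2. Pde6h, the second longest at 5940 bases, deviated by only 0.02 and -0.05. Cnga3 deviated by -0.10 and 0.05, and Gnat2 by -0.03 and 0.03. In wild type 1, Arr3, Gnb3 and Gngt2 deviated by -0.09, -0.09 and -0.14, and Slc24a2, Cngb3 and Cnga3 by 0.12, 0.15 and 0.22. In wild type 2, Arr3, Gnb3 and Gngt2 deviated by 0.11, 0.05 and 0.09, and Slc24a2, Cngb3 and Cnga3 by -0.12, -0.04 and -0.20. Pde6c deviated by -0.03 in wild type 1 and -0.01 in wild type 2.

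**Figure D2:**
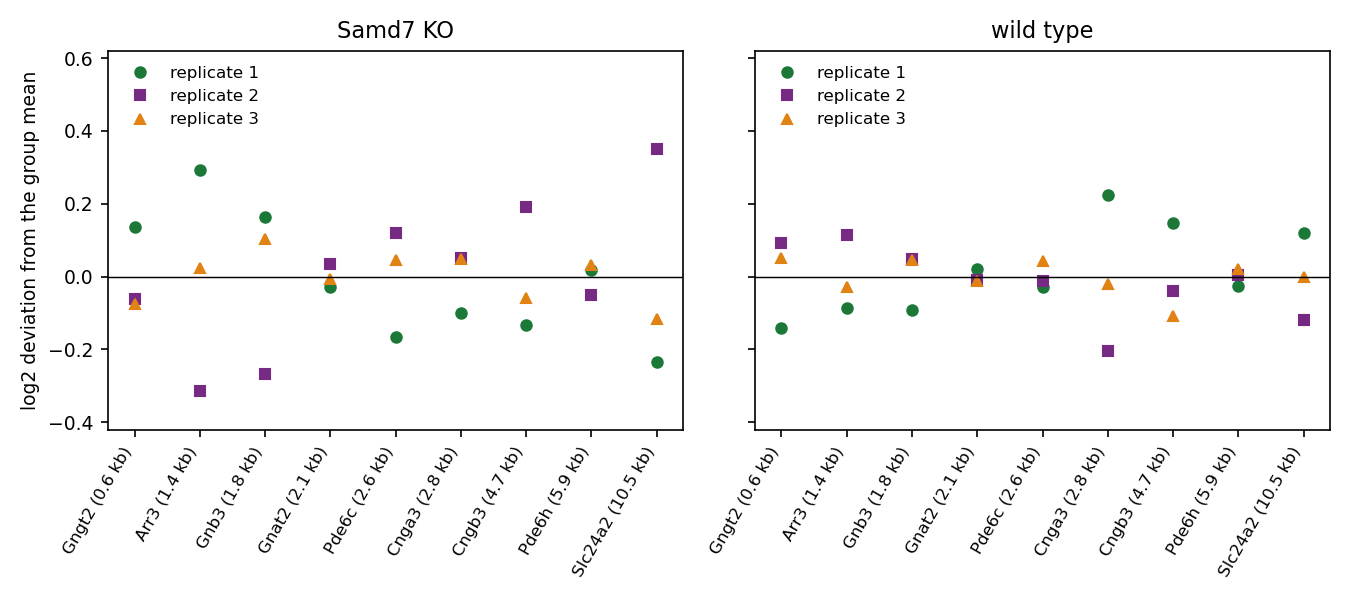
Log2 deviation of each member from its group mean in replicates 1 (circles), 2 (squares) and 3 (triangles), for the retinas labelled Samd7 KO (left panel) and wild type (right panel), with genes ordered by the length of their principal transcript. In Samd7 KO 1 the shortest 3 members lie above 0 and in Samd7 KO 2 below it, while Pde6c, Cnga3, Cngb3 and Slc24a2 lie the other way. In wild type 1 the shortest 3 members lie below 0 and in wild type 2 above it, while Cnga3, Cngb3 and Slc24a2 lie the other way.

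Promoter sequence could be set beside these values for 5 of the 9 members, Gnat2, Pde6h, Cnga3, Arr3 and Slc24a2, from the RefSeq promoter table of GRCm38.p6. In the 250 bases before each start site, both strands were searched for TAATCC, the core bound by CRX and OTX factors, AGGTCA, an element of nuclear receptor sites, TGCTGA, a part of NRL and MAF sites, and CACGTG, an E-box. Among 32851 promoter windows of the same length, 6.25% held TAATCC, 14.0% held AGGTCA, 16.1% held TGCTGA and 6.02% held CACGTG. Of the 5 members, with 7 start sites, 1 held TAATCC and 0 held any of the other motifs, and of 7 rod partners with a promoter entry 4 held TAATCC, 3 held AGGTCA, 2 held TGCTGA and 0 held CACGTG. A match is a description of letters and not evidence of binding. Of the members that rose, only Cnga3 had a promoter entry. Cnga3 has 2 start sites with a window each, neither with a match. Only the second window is shown, which lies inside the gene as annotated. The stretches below show this channel gene that rose beside 2 members that did not pass the test, with no match in any of the 3, and the only match among the members, on the reverse strand and beginning 19 bases before the Gnat2 start site, in capitals.
Cnga3 (chr1:37218955-37219204, plus strand): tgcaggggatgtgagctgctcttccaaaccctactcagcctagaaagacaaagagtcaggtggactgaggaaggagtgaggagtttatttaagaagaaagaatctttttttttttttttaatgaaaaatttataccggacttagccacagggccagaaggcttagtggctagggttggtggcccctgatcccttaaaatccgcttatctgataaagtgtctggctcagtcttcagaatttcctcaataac
Arr3 (chrX:100605247-100605496, plus strand): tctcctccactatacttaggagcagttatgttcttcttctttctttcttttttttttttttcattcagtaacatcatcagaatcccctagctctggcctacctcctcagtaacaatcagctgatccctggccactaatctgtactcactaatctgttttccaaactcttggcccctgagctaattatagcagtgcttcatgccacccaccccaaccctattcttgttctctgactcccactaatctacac
Pde6h (chr6:136954273-136954522, plus strand): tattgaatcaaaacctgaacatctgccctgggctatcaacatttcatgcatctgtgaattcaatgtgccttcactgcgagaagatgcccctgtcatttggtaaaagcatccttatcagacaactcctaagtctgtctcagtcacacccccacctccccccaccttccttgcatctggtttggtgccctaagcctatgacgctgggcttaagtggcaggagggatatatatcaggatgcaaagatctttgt
Gnat2 (chr3:108093035-108093064, plus strand): gggacaatccccGGATTAggaaggagctct

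**Figure D3:**
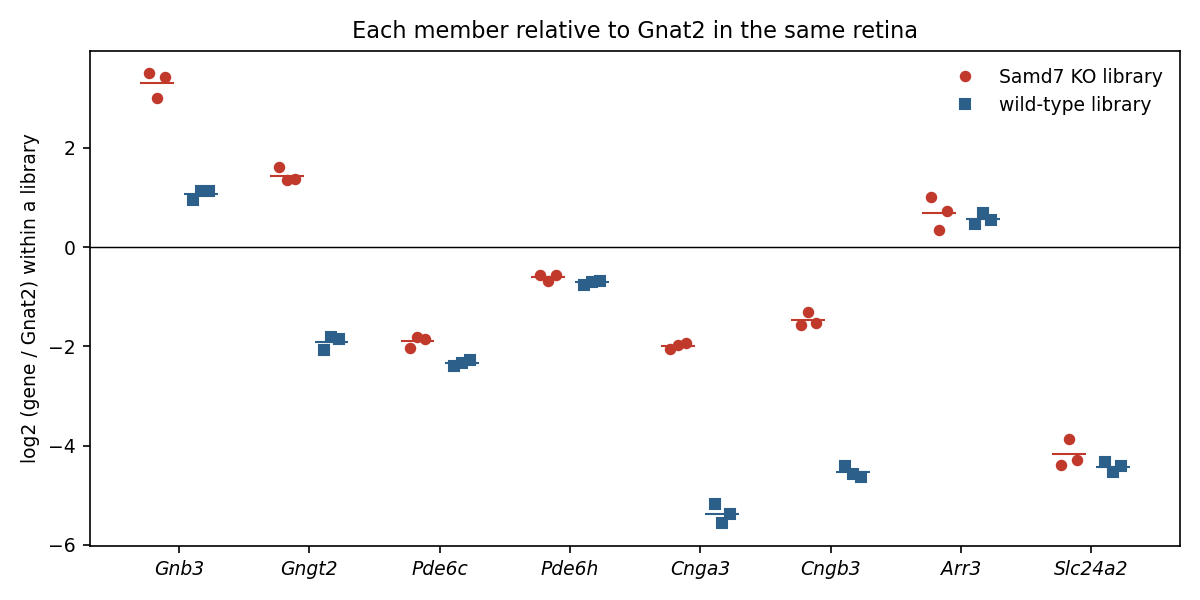
Log2 ratio of each cone gene to Gnat2 within the same library, for the 3 libraries labelled Samd7 KO (circles) and the 3 wild-type libraries (squares), with group means as lines; the line at 0 marks equal reads. The differences in mean log2 ratio were 2.24 for Gnb3, 3.36 for Gngt2, 3.38 for Cnga3 and 3.06 for Cngb3, against 0.44 for Pde6c, 0.11 for Pde6h, 0.12 for Arr3 and 0.25 for Slc24a2.

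Relative to Gnat2 in the same retina, 5 of 8 members had groups that did not overlap. These were Gnb3, Gngt2, Cnga3, Cngb3 and Pde6c, and each had the smallest exact p the design can give (p = 0.1, adjusted p = 0.16 over 8 members). Each of these genes lay higher without overlap on its own and Gnat2 lower, so these ratios could not overlap. Their exact p was thus fixed by the single-gene orders given above and adds no separate support. Pde6c stood 0.44 higher on the log2 scale relative to Gnat2, at -1.90 ± 0.12 in the retinas labelled Samd7 KO and -2.33 ± 0.05 in wild type (SD, n = 3 per group). For Pde6h the difference was 0.11 (exact permutation p = 0.2, adjusted p = 0.229 over 8 members), for Slc24a2 it was 0.25 (exact permutation p = 0.2, adjusted p = 0.229) and for Arr3 it was 0.12 (exact permutation p = 0.6, adjusted p = 0.6).

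Levels of different genes can be compared only per length, here as normalized reads per kilobase of the gene's principal GENCODE M21 transcript (the median length where several are annotated). In the retinas labelled Samd7 KO, Gnb3 (88366 ± 13595) and Gngt2 (77416 ± 6425, or 27952 on its longest principal transcript) were highest and overlapped, above Arr3 (19607 ± 4055) and Gnat2 (7927 ± 175). Pde6h (1812 ± 54.4), Pde6c (1693 ± 171), Cnga3 (1462 ± 85.8) and Cngb3 (1258 ± 152) lay in a row in which each overlapped its neighbour on these lengths, and Slc24a2 stayed lowest (86.8 ± 19.4; SD, n = 3 per group). The mean of Cnga3 was 1159 on its longest and 1978 on its shortest principal transcript, so its place between Pde6h and Cngb3 depends on the transcript taken.

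In wild type the order was different. Gnb3 (20860 ± 1134 normalized reads per kilobase) and Arr3 (19962 ± 1439) stood highest and overlapped. Gnat2 (8912 ± 119) and Gngt2 (8487 ± 719) came next and also overlapped, although Gngt2 spans 3064 to 9765 between its longest and its shortest principal transcript. Pde6h (1890 ± 31.0) and Pde6c (1403 ± 36.3) followed, then the channel genes Cngb3 (168 ± 15.7) and Cnga3 (158 ± 23.7), which overlapped, and Slc24a2 (81.2 ± 6.69; SD, n = 3 per group). Cnga3 had 125 on its longest and 214 on its shortest principal transcript, below Cngb3 on one and above it on the other. The channel genes thus stood next to Pde6c in the retinas labelled Samd7 KO, and far below it in wild type.

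All 10 rod partners were tested, of which 7 fell, 0 rose and 3 failed the test. Of all tested genes, limma called 5.21% lower and 6.79% higher. The rod partners had a median log2 fold change of -0.49. The gene that limma placed higher at an unadjusted p under 0.05 was Sag, which edgeR and limma-voom called higher and DESeq2 did not; edgeR called 7 lower, DESeq2 6 and limma-voom 9, and with scaling to total reads 6 fell and Sag rose. Rod transducin alpha, Gnat1, averaged 796016 ± 33658 normalized reads in the retinas labelled Samd7 KO and 1435230 ± 93969 in wild type (SD, n = 3 per group; limma log2 fold change -0.85, adjusted p = 1.62e-06). Gnb1, the beta subunit used by rods and by many other cells, averaged 148540 ± 1273 in the retinas labelled Samd7 KO and 262863 ± 3141 in wild type (log2 fold change -0.82, limma adjusted p = 4.05e-07).

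Among the other rod partners, the channel subunits Cngb1 (log2 fold change -0.99, limma adjusted p = 4.55e-07) and Cnga1 (-0.51, limma adjusted p = 7.92e-04) fell, as did the rod exchanger Slc24a1 (-0.63, limma adjusted p = 3.99e-04). The inhibitory phosphodiesterase subunit Pde6g (-0.47, limma adjusted p = 6.03e-05) and the catalytic subunit Pde6b (-0.21, limma adjusted p = 0.0312) also fell. Pde6b was not called by DESeq2 or with scaling to total reads. The rod partners that did not pass the limma test were the catalytic subunit Pde6a (-0.22, limma adjusted p = 0.119), the transducin gamma subunit Gngt1 (-0.24, limma adjusted p = 0.0906) and rod arrestin Sag (0.19, limma adjusted p = 0.0575). The 3 rod genes with the largest falls were thus partners of cone genes that behaved differently: Gnat2 was not called, whereas Gnb3 and Cngb3 rose.

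**Figure D4:**
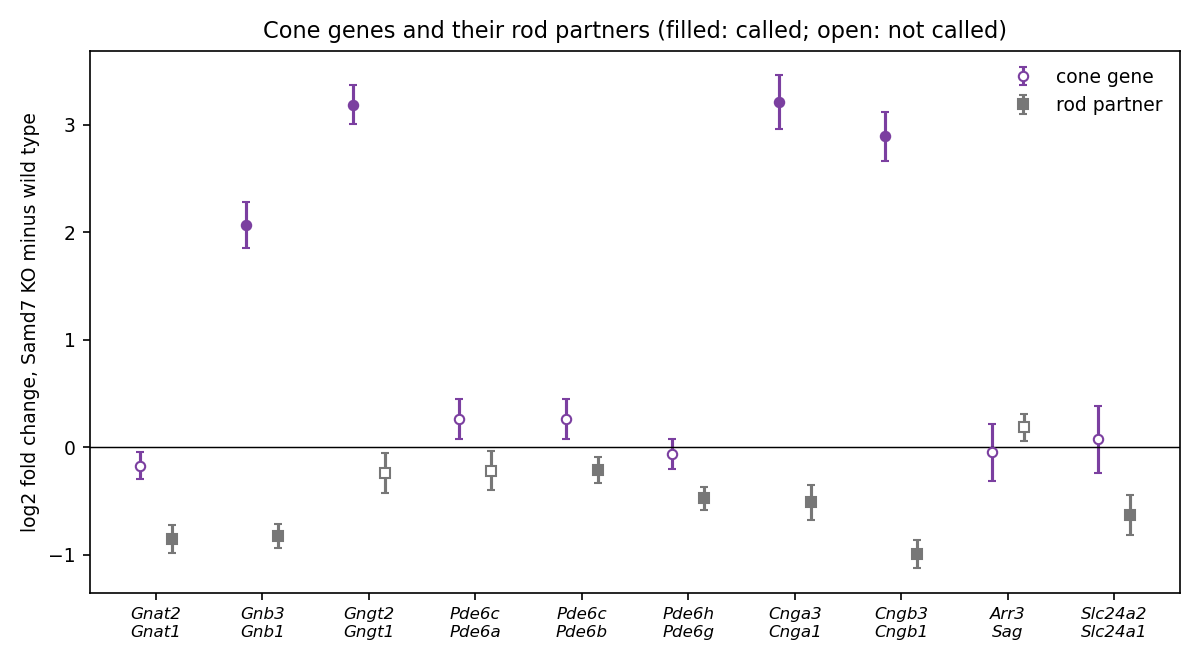
Log2 fold change (retinas labelled Samd7 KO minus wild type) with its 95% interval from limma for each cone gene (circles) and its rod partner (squares); filled symbols were called at an adjusted p under 0.05 and open symbols were not. Gnb3, Gngt2, Cnga3 and Cngb3 lie between 2.07 and 3.21, and all rod partners lie between -0.99 and 0.19.

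The ratio of the cone gene to its rod partner within a retina was higher in the retinas labelled Samd7 KO in 9 of 10 pairs, the exception being Arr3 to Sag. For Cngb3 to Cngb1 the ratio of reads was 0.148, 0.179 and 0.142 in the retinas labelled Samd7 KO, against 0.0113, 0.0107 and 0.00963 in wild type, 14.8-fold higher by the mean logs. The ratio of Cnga3 to Cnga1 was 13.2-fold higher, that of Gngt2 to Gngt1 10.8-fold and that of Gnb3 to Gnb1 7.44-fold. The remaining ratios were higher by 1.63-fold for Slc24a2 to Slc24a1, 1.60-fold for Gnat2 to Gnat1, 1.40- and 1.39-fold for Pde6c to Pde6a and Pde6b, and 1.33-fold for Pde6h to Pde6g. In these 9 pairs the groups did not overlap (two-sided exact permutation p = 0.1 for each, the smallest possible, adjusted p = 0.111 over 10 pairs), and for Arr3 to Sag they did (p = 0.5 by the exact permutation test). For Gnb3 to Gnb1, Cnga3 to Cnga1, Cngb3 to Cngb1 and Pde6c to Pde6b, cone genes lay higher and rod genes lower without overlap. The ratios of these pairs could therefore not overlap. The share of other gene pairs without overlap was not computed. In 4 of the pairs, Gnat2 to Gnat1, Pde6c to Pde6b, Pde6h to Pde6g and Slc24a2 to Slc24a1, the rod partner passed the limma test and the cone gene did not. With DESeq2 and with scaling to total reads, Pde6c was called higher and Pde6b was not called. For Pde6c to Pde6a neither gene passed the limma test (adjusted p = 0.0673 and 0.119).

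Per kilobase, Gnb3 made up 67.5%, 60.2% and 66.3% of the sum of Gnb3 and Gnb1 in the retinas labelled Samd7 KO, against 19.0%, 20.2% and 20.1% in wild type. On the median of its principal transcripts, whose lengths run over 498 to 1587 bases, Gngt2 made up 55.5%, 53.7% and 56.2% of the sum of Gngt2 and Gngt1 in the retinas labelled Samd7 KO, against 10.3%, 9.89% and 10.6% in wild type. For the alpha subunit, reads per kilobase came almost wholly from the rod gene in both groups. Gnat2 made up 2.29%, 2.36% and 2.15% of the sum of Gnat2 and Gnat1 in the retinas labelled Samd7 KO, against 1.35%, 1.45% and 1.49% in wild type. The cone channel subunit Cnga3 made up 10.7% to 12.6% of the sum with Cnga1 in the retinas labelled Samd7 KO, against 0.781% to 1.27% in wild type.

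Genes of the cascade that both photoreceptors use, or that are best known from rods, were also tested. Among 14 such genes, 8 fell, 1 rose and 5 failed the test, where limma called 5.21% of all tested genes lower and 6.79% higher. The median log2 fold change of the 14 was -0.30. Guca1b, a calcium sensor that regulates guanylate cyclase, had the lowest value (limma log2 fold change -1.04, adjusted p = 2.48e-07), and its relative Guca1a also fell (-0.44, limma adjusted p = 2.43e-04). The guanylate cyclase Gucy2f (-0.74), the anchor Rgs9bp (-0.77) and the partner Gnb5 (-0.41) of the complex that ends transducin signalling, phosducin Pdc (-0.24), the lipid-binding transport protein Unc119 (-0.37) and Tulp1 (-0.27), needed for transport to the outer segment, fell as well, with limma adjusted p between 2.55e-04 and 0.0401. Aipl1, a chaperone needed to assemble phosphodiesterase 6, rose slightly (0.20, limma adjusted p = 0.0436), a call that DESeq2 did not make. Pdc was not called by DESeq2 or with scaling to total reads.

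Of 14 relatives of the members that serve other cells, 13 were tested, and 2 rose, 0 fell and 11 did not pass. Over all tested genes, limma called 6.79% higher and 5.21% lower. Of the 13 relatives, 0 fell at an unadjusted p under 0.05 by limma, edgeR or DESeq2. Limma-voom called 1 relative lower, Slc24a5, and called Slc24a3 higher as well. The 2 that rose in the limma test encode G protein subunits. Gnb2, a beta subunit found in many cells, averaged 23430 ± 2659 normalized reads in the retinas labelled Samd7 KO and 9621 ± 2919 in wild type (SD, n = 3 per group; limma log2 fold change 1.33, adjusted p = 5.33e-04). The gamma subunit Gng13 averaged 8708 ± 722 in the retinas labelled Samd7 KO and 4787 ± 449 in wild type (log2 fold change 0.86, limma adjusted p = 4.50e-05).

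Genes other than the members, of cones and of other cells, moved too, and their part in these results was not tested. Of 8 other cone genes, 4 rose and 1 fell, where limma called 6.79% of all tested genes higher and 5.21% lower. The short-wavelength opsin Opn1sw (log2 fold change 3.25), Ccdc136 (2.93), the retinoid receptor Rxrg (2.91) and the potassium channel subunit Kcne2 (1.79) rose, and the middle-wavelength opsin Opn1mw fell (-1.30), with limma adjusted p between 8.27e-12 and 5.64e-08. The thyroid hormone receptor Thrb (0.17, limma adjusted p = 0.383), Sall3 (0.30, limma adjusted p = 0.193) and the proton channel Otop3 (0.31, limma adjusted p = 0.0796) did not pass, although limma-voom called Otop3 and Sall3 higher and scaling to total reads called Otop3 higher. The 8 genes summed to 515515 to 551980 normalized reads in the retinas labelled Samd7 KO and 86537 to 89940 in wild type. Most of the sum under the Samd7 KO label came from Opn1sw, at 396591 to 428922, against 42218 to 44532 in wild type. Ccdc136 held 80446 to 87967 under the Samd7 KO label and 10359 to 11654 in wild type.

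Among the rod markers reported here, Nrl (log2 fold change -0.70, limma adjusted p = 9.66e-06) and Esrrb (-0.46, limma adjusted p = 0.00216) fell, Samd7 rose (2.72, limma adjusted p = 1.54e-08), and Nr2e3 and Rp1 did not pass. The summed level of 13 ganglion and amacrine cell markers was 103941 to 111073 normalized reads in the retinas labelled Samd7 KO and 101151 to 109901 in wild type. Nefh was called higher (0.37, limma adjusted p = 0.00960) and 12 did not pass, where 6.79% of all tested genes were called higher and 5.21% lower. Of those 12, 5 (Rbpms, Thy1, Sncg, Slc32a1 and Tfap2b) lay lower in all retinas labelled Samd7 KO than in all wild-type retinas, with log2 fold changes of -0.27 to -0.10, where 15.2% of all tested genes had that order. Limma placed 3 of the list lower at an unadjusted p under 0.05, edgeR and DESeq2 called 0 lower, and limma-voom called 1 lower, Thy1.

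Markers of tissue around or within the neural retina differed between groups. Among all tested genes, limma called 6.79% higher and 5.21% lower. Pigment epithelium markers summed to 1495 to 2515 normalized reads in the retinas labelled Samd7 KO and 4184 to 6609 in wild type, with 6 of 8 lower (Rpe65, Ttr, Rgr, Lrat, Rdh5 and Dct, log2 fold changes of -2.14 to -0.80). Microglia markers summed to 5031 to 5645 in the retinas labelled Samd7 KO and 3139 to 3563 in wild type, with 7 of 7 higher (Cx3cr1, Ctss, C1qa, C1qb, C1qc, Csf1r and P2ry12, 0.50 to 1.15 in log2). Red blood cell markers summed to 5539 to 8121 in the retinas labelled Samd7 KO and 1437 to 2186 in wild type, with 4 of 4 higher (Hbb-bs, Hbb-bt, Hba-a1 and Hba-a2, 1.96 to 2.15 in log2). Of the 5 lens markers, 1 was tested, Crybb1, and it was not called. No marker of these lists was at 0 in all libraries.

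For the 4 genes that rose, the tested genes with the most similar profile over the 6 libraries were found. Likeness is given as the root mean square distance between log2 values, each gene centred on its own mean over the 6 libraries. By construction, this distance reflects the size of the fold change as well as the spread of the replicates. The nearest genes to Cngb3 were Tafa3 (0.10), Rxrg (0.11) and Ccdc136 (0.12). The nearest to Cnga3 were Opn1sw (0.11), Foxo6os (0.13) and Tafa3 (0.14), those to Gngt2 were Akr1b8 (0.07), Tceanc2 (0.13) and Opn1sw (0.14), and those to Gnb3 were Ppm1j, Cltb and Chtf18 (0.12, 0.12 and 0.13). Among the members themselves the closest pair of risers was Cnga3 and Cngb3 (0.19), followed by Cnga3 and Gngt2 (0.23), while Gnb3 stood 0.49 to 0.62 from the other risers. Gnat2 and Pde6h were the closest pair of members (0.07). Genes outside the members lay nearer to each, at 0.02 for Gnat2 and 0.01 for Pde6h.

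The authors' deposited table, made with DESeq2, tested each gene against no change and against a log2 fold change of 1. Against a log2 fold change of 1 it lists adjusted p-values of 8.33e-20 for Gnb3, 1.52e-107 for Gngt2, 3.68e-77 for Cnga3 and 3.66e-60 for Cngb3 and of 1 for the other 5 members, where 0.546% of the genes it tested were called higher and 0.674% in either direction. These are the same libraries, so the deposited values are no separate support.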

How the data were processed

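Per the labels' protocols, each library came from 1 retina, with low-input template-switching cDNA synthesis and 15 amplification cycles; no molecular identifiers are described. Per the submitters' processing notes, the tools included STAR 2.7.3a, HTSeq 0.12.4, cutadapt 3.0, SAMtools 1.9, DRAGEN and DESeq2 and the builds mm10 and GRCm38, with roles not given in the sources used here. Each deposited signal value is a gene's reads over 1 size factor for its library, set by the authors. All 166478 values above 0 came out as whole reads within 0.01 reads (100%). The authors also deposited log2 fold changes, Wald scores and adjusted p-values.

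Limma-trend was run on log2(value + 1) over 20277 genes at or above 10 in at least 3 libraries, two-sided, with Benjamini-Hochberg adjustment. Log2 fold changes are on that scale, which understates changes of low genes, and fold changes without log2 are ratios of group means. Ratios within a retina were tested with two-sided exact permutation tests. edgeR's quasi-likelihood test on the recovered reads called 2494 genes and limma-trend 2432. edgeR 4.0.16, DESeq2 1.42.0 and limma 3.58.1 were run in R 4.3.3, and the fit was checked on simulated counts. All 49997 symbols matched the RefSeq gene table of GRCm38.p6. The members, lists and motifs were chosen with earlier results of these data known. The genes named were the members, their rod partners, the called genes of each other list with up to 2 more where few were called, and the 3 nearest profiles of each called member among symbols that are not predicted models. Abi3, Slc24a3, Slc24a5, Rbpms, Thy1, Sncg, Slc32a1, Tfap2b, Thrb, Sall3, Otop3, Nr2e3, Rp1, Grm6 and Trpm1 were named after their values were seen. Part of the rod marker list is not reported here.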

Additional observations from a re-analysis of the deposited data

How the results depend on the processing

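Gnb3, Gngt2, Cnga3 and Cngb3 were called higher in all 18 other ways to run the test, with log2 fold changes of 1.99 to 2.21, 3.12 to 3.26, 3.11 to 3.33 and 2.80 to 2.97. Limma-voom with sample quality weights called 1 member lower, Gnat2, against 0 in the test used; Pde6c was the fifth member called higher with limma-voom, DESeq2, scaling to total reads, Samd7 KO 1 left out and the length trend removed. Scaling to total reads (0.0127), like removal of the length trend (0.0207), turned the log2 fold change of Arr3 positive, and removal of the length trend (-0.0455) turned that of Slc24a2 negative. With single libraries left out, Arr3 ran between -0.19 and 0.11, positive without Samd7 KO 2 or wild type 2, and Slc24a2 between -0.10 and 0.19, negative without Samd7 KO 2. Removal of the length trend was chosen after seeing the data; the cause of these turns was not tested. The count of called genes, 2432, was 4650 with limma-voom, for a cause that was not tested, and 1189 at an adjusted p under 0.01, by its own construction. It ran between 1313 (wild type 3 left out) and 3247 (Samd7 KO 1 left out) with single libraries removed, and was 1470 on removal of wild type 2 and 1497 on removal of Samd7 KO 3. Of the called genes 56.6% were higher, and 71.2% with scaling to total reads. With a replicate block 1624 genes were called, including the same 4 members; same-numbered retinas did not deviate together (correlations of -0.18, -0.13 and -0.01), so the numbers were not taken as pairs. Among the differences in log2 ratio within a library, Arr3 to Gnat2 turned to -0.0349 without Samd7 KO 1 (0.12 with all libraries). Without Samd7 KO 2, Slc24a2 to Gnat2 was 0.0891 (0.25 with all libraries) and Arr3 to Sag -0.0626 (-0.23 with all libraries). The difference of Gnat2 and the difference of Pde6c are the members' values that cross the threshold with the choice of test.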

Other observations

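In 4 of the 6 libraries, deviations from the group mean went with transcript length across the table. Over all tested genes with an annotated length, taken as the longest transcript, the median log2 deviation from the group mean in Samd7 KO 1 was 0.11 for the 2574 genes of up to 1000 bases and -0.16 for the 895 genes of over 8000 bases. In Samd7 KO 2 it was -0.06 for the shorter class and 0.17 for the longer. In wild type 1 these medians were -0.09 and 0.07, and in wild type 2 they were 0.11 and -0.08. In Samd7 KO 3 they were -0.03 and -0.02, and in wild type 3 they were -0.01 and 0.02. With each library's trend removed, the log2 fold changes of Gnb3, Gngt2, Cnga3 and Cngb3 were 2.13, 3.26, 3.17 and 2.81, and those of Gnat2, Pde6h, Arr3 and Slc24a2 were -0.15, -0.16, 0.02 and -0.05.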
